A study of Mus musculus with 2 samples.

Results

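Replication-dependent histone genes encode the bulk of the H1, H2A, H2B, H3 and H4 proteins that package DNA. The members were the protein-coding genes whose symbols begin with Hist1h, Hist2h, Hist3h or Hist4h in the GENCODE M21 basic annotation, 67 of 21851 protein-coding genes on the nuclear chromosomes. There were 6 H1, 18 H2A, 18 H2B, 12 H3 and 13 H4 genes, with 54 in the Hist1 cluster on chromosome 13, 10 in the Hist2 cluster on chromosome 3, 2 in the Hist3 cluster on chromosome 11 and 1, Hist4h4, on chromosome 6.

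The series measured open chromatin by DNase-seq in mouse hippocampus. The enzyme DNase I cuts DNA that is not wrapped in nucleosomes, so places with many cuts, called peaks, are open promoters and enhancers. Within a peak a short run of bases with few cuts, called a footprint, is where a bound protein may have shielded the DNA. There was 1 group with 2 biological replicates, and every replicate pooled 2 biosamples. Both pools came from B6CASTF1/J male mice aged 8 to 10 months (a cross of C57BL/6J and CAST/EiJ), carry the same donor label, and are labelled as hippocampal tissue with no layer named and an unknown developmental stage. The labels do not tell whether the pools came from separate animals, so the spread between them may be partly technical. No gene was altered and no treatment was given, so every value below is a level in untreated tissue, and no test between conditions was possible.

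Cycling cells need a new set of histones each time they copy their DNA, and the genes of these clusters are known for transcription in S phase and for mRNAs that end in a stem-loop in place of a poly(A) tail. NPAT drives the clusters at nuclear histone locus bodies, together with HINFP at H4 genes, the octamer protein OCT1 at H2B genes and the CCAAT-binding factor NF-Y. Most cells of an adult hippocampus, its neurons above all, have left the cell cycle, and histones there are renewed mainly from replacement variants such as H3.3 and H2A.Z, which are made all through the cell cycle.

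Most of these promoters were open in the adult hippocampus. A promoter was called open where a peak of the longer deposited list touched the window of 500 bp to each side of a GENCODE start site. Of the 67 genes, 57 were open in both replicates (85.1%), against 13243 of all 21851 protein-coding genes (60.6%). Replicate 1 had 58 open members against 62.9% of all coding genes, and replicate 2 had 57 against 61.7%. A footprint lay in the window of 57 members in both replicates (59.1% of all coding genes), and a base with a false discovery rate of the local cut rate of 0.05 or less lay in the window of 57 (61.5% of all coding genes). These promoters are rich in CpG dinucleotides: the median ratio of observed to expected CpG was 0.879 over the members and 0.552 over all coding genes. Among genes whose ratio lay between 0.81 and 0.927, the middle quartiles of the members, 30 of 33 members were open in both replicates, against 2713 of 2852 coding genes (95.1%), so at like CpG content the members' share was near the background.

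The height of the strongest peak in the window is the authors' signal value, whose scale is not stated. Over the 57 genes open in both replicates the median height was 3.08 in replicate 1 and 2.81 in replicate 2 (2.95 ± 0.195, SD, n = 2). Over all open coding genes it was 3.62 and 2.91 (3.26 ± 0.507). Of the 57, 23 stood above the coding median. Among open genes with a CpG ratio between 0.81 and 0.927, median heights were 3.43 and 3.35 for members and 4.95 and 3.89 for coding genes. Above the median of all open coding genes stood 15 of 30 such members and 1777 of 2713 such coding genes. At like CpG content the members were thus lower in both replicates. In bulk tissue a promoter open in few cells and one weakly open in many cells cannot be told apart. Of the markers used to check the tissue, all 8 of excitatory neurons were open in both replicates (Wfs1 6.04, Camk2a 3.94), as were 5 of 6 of oligodendrocytes, 4 of 6 of astrocytes, 3 of 6 of inhibitory neurons, 1 of 5 of microglia and 1 of 5 of endothelial cells, with 1 of 4 of choroid plexus and ependyma, 1 of 3 of erythroid cells and 1 of 5 of germ cells. Ttr, Folr1, Hbb-bs, Hba-a1, Ddx4, Tnp1 and Prm1 had no promoter peak in either replicate. The part of cell mixture in the heights was not tested.

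The types differed in height. All 13 H4 genes were open in both replicates, and so were 15 of 18 H2A, 15 of 18 H2B, 10 of 12 H3 and 4 of 6 H1 genes. Median heights in replicates 1 and 2 were 6.22 and 6.18 for H4, 3.35 and 2.98 for H2A, 2.85 and 2.68 for H2B, 2.86 and 2.61 for H3, and 2.20 and 2.32 for H1. H4 was the highest type in both replicates, and its gap to H2A, the next, was larger than the spread between replicates (6.20 ± 0.0299 and 3.17 ± 0.257, n = 2 each). This SD is between the replicates' medians and does not measure the spread among genes. In mean height open H4 genes ranged from 0.664 to 9.02 and open H2A genes from 0.615 to 7.64. Within the Hist1 cluster alone the medians were 4.77 and 4.57 for H4 and 2.97 and 2.72 for H2A. The order of H2A, H2B and H3 was less clear, since H2B and H3 differed by less than their replicate SDs. Of the open genes 10 of 13 H4, 5 of 15 H2A, 4 of 15 H2B, 4 of 10 H3 and 0 of 4 H1 stood above the coding median of 3.29. In 9 pairs an H2A and an H2B gene had the same strongest peak, so the values of these 2 types are not independent.

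**Figure D1:**
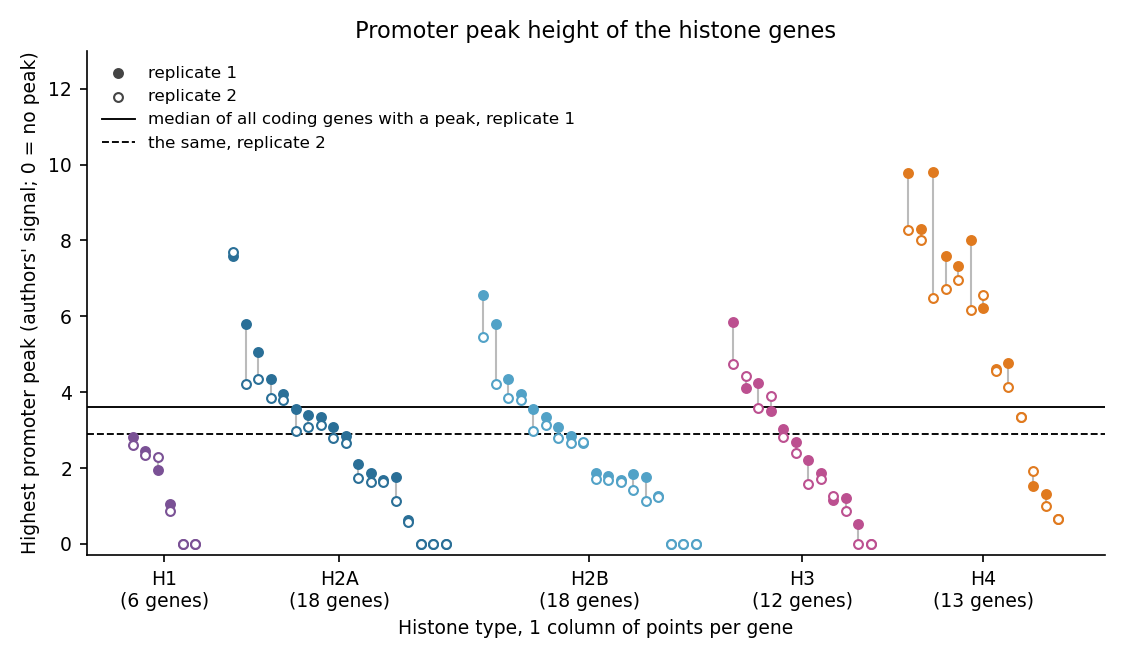
Height of the strongest promoter peak (authors' signal, vertical axis) of each histone gene, in columns grouped by type, with replicate 1 filled and replicate 2 open; genes with no peak sit at 0, and the horizontal lines are the medians of all open coding genes, 3.62 in replicate 1 and 2.91 in replicate 2. In mean height 10 of 13 H4 genes lie above the coding median, and all 4 open H1 genes lie below both lines in both replicates.

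H4 genes. H4 pairs with H3 at the centre of the nucleosome, and the H4 genes encode one and the same protein. Hist1h4c had heights of 9.77 and 8.27 (9.02 ± 1.06, n = 2, rank 876 of 13243 open coding genes). Hist2h4, the H4 gene of the Hist2 cluster, had 8.31 and 8.00 (8.15 ± 0.218). Hist1h4a had 9.79 and 6.49 (8.14 ± 2.34), the widest gap between replicates of any member. Next came Hist1h4d (7.60 and 6.72), Hist1h4i (7.33 and 6.95), Hist1h4h (8.02 and 6.18) and Hist4h4 (6.22 and 6.55), the lone histone gene on chromosome 6. These 7 H4 genes were all above 6 in both replicates, and the other 6 were below 5 in both. They were Hist1h4k (4.61 and 4.57), Hist1h4f (4.77 and 4.15), Hist1h4b (3.35 and 3.34), Hist1h4j (1.54 and 1.93), Hist1h4m (1.31 and 1.00) and Hist1h4n (0.663 and 0.665). Genes for the same protein thus spanned 0.664 to 9.02 in mean height, or 1.73 to 9.02 without Hist1h4m and Hist1h4n, which lie in duplicated sequence.

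HINFP binds a sequence around GGTCCG in H4 promoters. That word (on either strand, from 250 bases before to 50 after the GENCODE start) was found in 12 of 13 H4 genes, against 9.59% of all coding genes, and in 3 of the other members (Hist1h2bh, Hist1h3f and Hist1h3i). In the 12 H4 genes it lay at -83 to -53 relative to the first base of the start codon (median -77.5). Of these 12 words 11 overlapped a footprint in both replicates, against 392 of 1881 (20.8%) in all open coding promoters. Inside peaks of both replicates the counts were 10 of 10 for H4 and 336 of 1169 (28.7%) for all coding genes. H4 peaks were taller than those of most coding genes, and the part of height in the number of footprints found was not tested.

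The stretches below show the word in its setting. Each is the 120 bases before the most upstream annotated start (GENCODE or RefSeq), in mm10, read 5′ to 3′ along the gene's strand, with capitals at bases inside a footprint in both replicates. Hist1h4c is at chr13:23698459-23698578 (minus strand), Hist2h4 at chr3:96263312-96263431 (minus), Hist1h4d at chr13:23581448-23581567 (plus), Hist1h4i at chr13:22041363-22041482 (minus), Hist1h4n at chr13:21832198-21832317 (minus) and Hist1h4a at chr13:23761250-23761369 (minus).
Hist1h4c: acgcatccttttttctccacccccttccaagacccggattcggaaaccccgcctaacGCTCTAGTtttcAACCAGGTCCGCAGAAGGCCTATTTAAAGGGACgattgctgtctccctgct
Hist2h4: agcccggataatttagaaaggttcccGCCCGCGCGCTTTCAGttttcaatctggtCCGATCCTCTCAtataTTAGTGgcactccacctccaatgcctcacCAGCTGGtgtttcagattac
Hist1h4d: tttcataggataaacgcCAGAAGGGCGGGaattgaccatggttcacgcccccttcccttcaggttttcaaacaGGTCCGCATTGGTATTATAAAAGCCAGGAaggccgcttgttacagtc
Hist1h4i: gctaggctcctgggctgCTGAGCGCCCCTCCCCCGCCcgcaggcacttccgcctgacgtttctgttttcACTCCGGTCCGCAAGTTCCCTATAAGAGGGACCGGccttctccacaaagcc
Hist1h4n: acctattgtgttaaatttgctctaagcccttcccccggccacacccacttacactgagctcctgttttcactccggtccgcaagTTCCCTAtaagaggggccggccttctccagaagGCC
Hist1h4a: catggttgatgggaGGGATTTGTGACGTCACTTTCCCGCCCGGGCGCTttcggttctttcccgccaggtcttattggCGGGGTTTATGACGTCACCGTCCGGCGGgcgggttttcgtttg

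In Hist1h4c, Hist1h4d and Hist1h4i the whole word ggtccg is in capitals and one protected block runs on downstream of it through the region of the TATA-like letters. In Hist2h4 the block begins inside the word. In Hist1h4n, the lowest H4 gene, the word is there in lower case, and the footprint lies next to it. Its copy Hist1h4m, alike at 299 of the 300 bases before the start codon, had the word in a footprint in both replicates, and 2.89% and 3.81% of the words in the windows of Hist1h4n and Hist1h4m occur once in the reference. Hist1h4a is the exception among the H4 genes: it has no GGTCCG in the searched window, and its stretch shows instead 2 copies of TGACGTC, the core of the cAMP response element bound by CREB and ATF factors, each inside a footprint in both replicates. Its strongest peak was centred at -274 relative to the start codon in both replicates, farther upstream than that of any other H4 gene. TGACGTC also lay in a footprint of Hist1h4h and of the Hist1h2ag/Hist1h2bj pair. It was found in 6 of 67 members (8.96%) and in 4.01% of all coding genes. Of its 5 distinct sites in open members 4 overlapped a footprint in both replicates, against 465 of 716 (64.9%) in all open coding promoters, so such an overlap is usual for this word.

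Read across all 13 H4 genes, footprints recurred at a few distances from the start codon, named here because they were the most covered. Other positions were covered in fewer genes or unevenly between replicates, such as -90 (61.5% and 30.8%) and -100 (38.5% and 15.4%). Position -70 was inside a footprint in 92.3% of the genes in replicate 1 and 92.3% in replicate 2, which is 12 of 13. Position -60 was covered in 69.2% and 84.6%. A further position, 50 in the coding sequence, was covered in 76.9% and 61.5%. H2A and H2B genes had no position that was covered as often in both replicates: the best shared positions were -80 in H2A (53.3% and 46.7%) and -60 in H2B (46.7% and 46.7%). Over the 4 open H1 genes position -70 was covered in 100% in replicate 1 and 75% in replicate 2. H4 coding sequences are alike, so the footprints of these genes are not independent of each other.

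**Figure D2:**
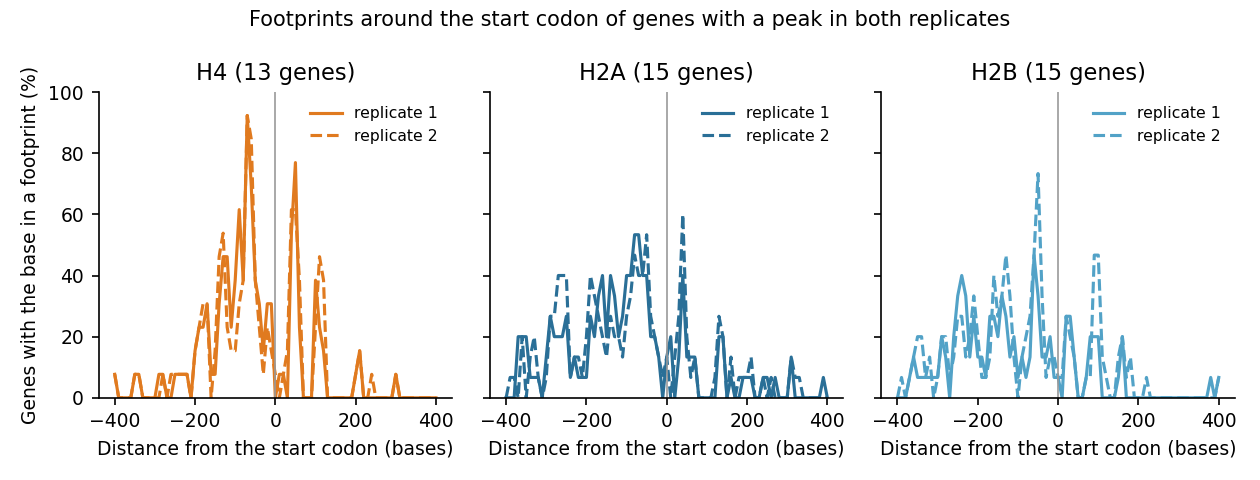
Share of genes open in both replicates (vertical axis, %) whose base lies in a footprint, by distance from the start codon (horizontal axis, bases, upstream negative), for 13 H4, 15 H2A and 15 H2B genes; solid lines are replicate 1 and dashed lines replicate 2. The H4 line reaches 92.3% at -70 in both replicates.

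H2A and H2B genes. H2A and H2B form dimers, and most of their genes sit back to back, in divergent pairs that share 1 intergenic promoter. There were 12 such pairs (24 genes) with start sites 176 to 306 bp apart (median 259.5 bp). Of the pairs 9 were open, and in each of them the strongest peak of the H2A gene and of the H2B gene was the same peak in both replicates, so the 2 genes of a pair share 1 measurement. Pair heights ranged from 1.45 to 5.003 in mean over the replicates. The highest was Hist1h2bf/Hist1h2ad (5.80 and 4.20), ahead of Hist1h2ag/Hist1h2bj (4.34 and 3.85) and Hist2h2ac/Hist2h2be (3.96 and 3.79), and the lowest was Hist1h2ak/Hist1h2bn (1.75 and 1.14). In all, the 58 and 57 open members had 48 and 47 distinct strongest peaks, with 10 of these peaks shared by 2 genes in each replicate.

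The pair promoters share sequence features. CCAAT, the word read by NF-Y, was found in every one of the 18 H2A and 18 H2B genes, in 56 of 67 members (83.6%) and in 39.0% of all coding genes, and each pair held 2 to 5 copies between its start codons (median 3). The window of Hist1h2be, an H2B gene outside the pairs, lies at a GENCODE start 35168 bp before its start codon. Its CCAAT words are those of that distant start. Its heights were 1.79 and 1.69 there, and 1.59 and 1.47 around the codon. H4 genes had it in 4 of 13. TTTGCAT, part of the octamer read by OCT1, was found in 8 of 18 H2B and 7 of 18 H2A genes, in 17 members in all (25.4%), against 4.27% of all coding genes. Of its 11 distinct sites in open members 1 overlapped a footprint in both replicates (9.09%), against 31 of 502 (6.18%) in all open coding promoters. TTTCGCG, a form of the E2F site, was found in 8 H2A and 6 H2B genes and in no other type (20.9% of members, 1.03% of all coding genes). In these gene counts a word shared by a pair counts for both its genes. That was so in 5 of the 12 pairs for TTTGCAT and in 6 for TTTCGCG. Of the 8 distinct TTTCGCG words in open members 6 overlapped a footprint in both replicates, against 70 of 198 (35.4%) in all open coding promoters. CCAAT words were covered less: 18 of 98 (18.4%), against 19.8% in all open coding promoters, a share near the background. Inside peaks of both replicates the CCAAT counts were 14 of 78 (17.9%) for members and 1329 of 4905 (27.1%) for all coding genes. There the members' share was below the background. The other E2F form searched, TTTGGCG, was found in none of the 67 members and in 1.93% of all coding genes.

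The intergenic stretch of Hist1h2ag/Hist1h2bj shows these words and their footprints together. It is chr13:22042950-22043197 in mm10, read on the minus strand so that it runs from the H2B start on the left to the H2A start on the right, with capitals at bases inside a footprint in both replicates. The second stretch is part of a pair with no peak, Hist1h2bq/Hist1h2ao, at chr13:21810201-21810366 on the plus strand, also read from the H2B side toward H2A. It stops short of the H2A start, so it leaves out the side where the first stretch has its TTTCGCG.
Hist1h2ag/Hist1h2bj: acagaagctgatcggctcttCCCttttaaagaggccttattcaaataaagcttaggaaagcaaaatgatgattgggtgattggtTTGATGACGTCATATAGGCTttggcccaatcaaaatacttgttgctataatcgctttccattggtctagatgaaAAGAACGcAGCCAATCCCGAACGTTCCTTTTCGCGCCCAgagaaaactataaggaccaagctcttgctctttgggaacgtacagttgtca
Hist1h2bq/Hist1h2ao: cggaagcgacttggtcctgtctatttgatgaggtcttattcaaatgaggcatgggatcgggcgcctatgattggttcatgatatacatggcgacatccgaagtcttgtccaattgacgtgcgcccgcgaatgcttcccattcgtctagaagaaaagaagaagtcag

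The open pair shows a footprint over tgacgtca in the middle and a longer one that holds ttttcgcgcc toward the H2A gene, with a CCAAT box (read as attgg or ccaat) in 5 places. The second stretch shows no capital letter, but every 32-base word of its 2 windows has further copies in the reference, so a lack of peaks and footprints there cannot be read as a difference from the first pair. Between its start codons Hist1h2bq/Hist1h2ao holds 3 CCAAT boxes and no TTTCGCG.

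Outside the pairs, the 3 tallest of these types were in the Hist2 and Hist3 clusters. Hist2h2aa2 had heights of 7.59 and 7.68 (7.64 ± 0.0687), the highest of any H2A gene. Its duplicate Hist2h2aa1 had 3.41 and 3.09 (3.25 ± 0.221), although the 300 bases before the start codons match at 298 positions (99.3%). Only 27.3% and 33.3% of the 32-base words in their windows occur once in the reference. The part of sequence copies in this difference was not tested. Hist2h2bb, a lone H2B gene, had 6.56 and 5.46. Hist3h2a, the H2A gene of the Hist3 cluster, had 5.07 and 4.34, and Hist3h2ba, its H2B gene, had 2.66 and 2.68. Hist2h2ab, the last H2A gene of the Hist2 cluster, had 2.12 and 1.74. The lowest open H2A gene and lowest open member was Hist1h2ab (0.643 and 0.588), and the lowest open H2B gene in mean was Hist1h2bm (1.27 and 1.23).

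H3 genes. Hist1h3e was the highest H3 gene (5.84 and 4.74), ahead of Hist1h3b (4.11 and 4.42), Hist1h3g (4.25 and 3.57) and Hist1h3h (3.50 and 3.89). Hist1h3i was the lowest in mean (1.22 and 0.865). The H3 promoter of the Hist2 cluster that was open in both replicates was Hist2h3b (3.03 and 2.81). Hist1h3f had 1.86 and 1.70, but this peak belongs to the neighbouring Hist1h2bh as well: its GENCODE start lies 433 bp before its start codon, and around the codon the heights were 1.56 and 1.505. The value of Hist1h3f therefore depends on the annotated start.

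H1 genes. Linker histone H1 sits on the DNA between nucleosomes. Hist1h1c, one of the main somatic H1 genes, had 2.83 and 2.61 (2.72 ± 0.156), Hist1h1e had 2.45 and 2.34, Hist1h1a had 1.95 and 2.30 and Hist1h1b had 1.06 and 0.859. No H1 gene reached the coding median in mean height. The H1 box AAACACA, a conserved word of H1 promoters, was found in 4 of 6 H1 genes (13.4% of members, 6.40% of all coding genes), and none of its 3 sites in open H1 genes overlapped a footprint in both replicates (27 of 619 in all open coding promoters, 4.36%).

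Hist1h1d and Hist1h1t had no peak in the window in either replicate. The GENCODE start of Hist1h1d lies 1828 bp before its start codon. With windows around the RefSeq start or the start codon it had peaks of 2.26 and 2.09, level with the other somatic H1 genes. Hist1h1t, the H1 gene of spermatocytes, had its nearest peak 1667 and 1687 bp away, and every 32-base word of its window occurs once in the reference. The 120 bases before the starts of Hist1h1c (chr13:23738687-23738806, plus strand) and Hist1h1t (chr13:23695691-23695810, plus strand) are shown because both hold the H1 box, a CCAAT box and a run like the TATA box.
Hist1h1c: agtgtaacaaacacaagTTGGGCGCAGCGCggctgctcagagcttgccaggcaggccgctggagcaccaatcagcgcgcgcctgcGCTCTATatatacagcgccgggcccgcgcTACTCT
Hist1h1t: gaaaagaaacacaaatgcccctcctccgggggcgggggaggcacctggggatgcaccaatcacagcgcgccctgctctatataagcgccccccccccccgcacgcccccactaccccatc

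The open gene has footprints (capitals) beside the H1 box, at the TATA-like run and at the start, and the closed gene has none. The CpG ratio was 0.438 for Hist1h1t and 0.794 for Hist1h1c. The divergent pair Hist1h2ba/Hist1h2aa, which encodes the testis forms of H2B and H2A, was closed as well: its nearest peaks were 4339 bp or more away, 82.4% and 95.1% of its words occur once, and its CpG ratios were 0.681 and 0.649. No base of the 3 testis genes' windows had a false discovery rate of 0.05 or less in either replicate.

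The other genes with no peak, or with one in replicate 1 alone, lay in duplicated sequence. Hist1h2bq/Hist1h2ao and Hist1h2ap/Hist1h2br are copies on opposite strands, alike at all 295 bases between their start codons, and 0% of the 32-base words in their 4 windows occur once in the reference. Hist2h3c1 had no peak in either replicate, and Hist2h3c2 had a peak of 0.525 in replicate 1 alone, with 3.30% of words found once in each window. Of the 8 members under 10% of words found once, 2 were open in both replicates (Hist1h4m and Hist1h4n), against 18 of 811 such coding genes (2.22%). Of the 59 members at or above 10%, 55 were open, against 13225 of 21040 coding genes. The sources do not say how reads that map to several places were treated, so a missing peak in duplicated sequence cannot be read as closed chromatin. The median share of words found once was 98.9% for H1, 77.5% for H4, 63.3% for H3, 51.0% for H2B and 49.6% for H2A. H4 was thus above H2A, H2B and H3 in this share as well as in height, and the part of sequence copies in the order of the types was not tested.

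**Figure D3:**
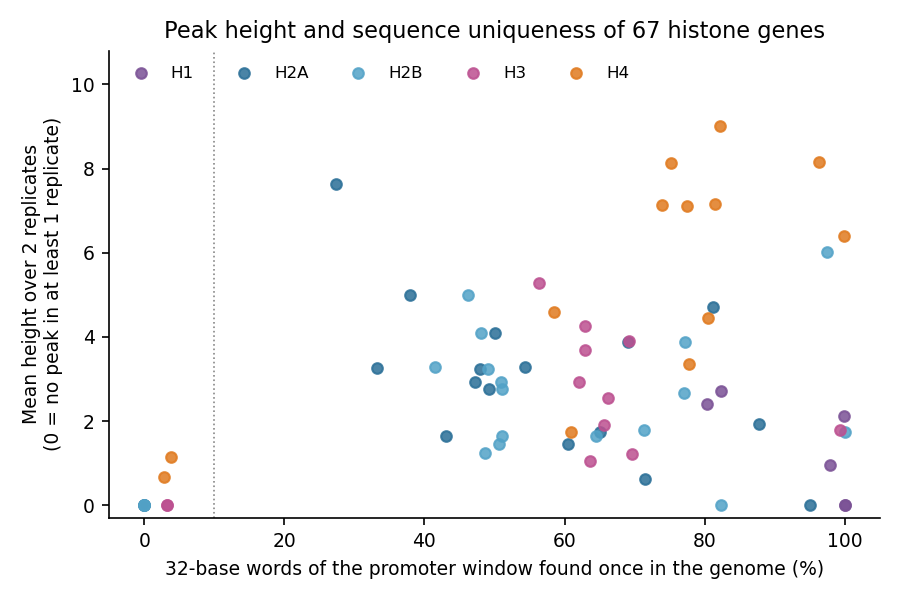
Mean peak height over both replicates (vertical axis, authors' signal, 0 where a peak was missing in 1 or both replicates) against the share of 32-base words of the promoter window that occur once in the reference (horizontal axis, %), 1 point per histone gene, coloured by type. Of the 8 genes left of the dotted line at 10%, 2 have a peak in both replicates, and the 4 genes at 0 on the right are Hist1h1d, Hist1h1t and the testis pair.

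TATAAA, the TATA box, was found in 37 of 67 members (55.2%), against 12.7% of all coding genes, in every type. In 8 of the 12 H2A and H2B pairs a TATA box between the start codons was counted for both genes. In open members 15 of 30 such words overlapped a footprint in both replicates, against 109 of 1012 (10.77%) in open coding promoters. Many of these words lay outside peaks. Inside peaks of both replicates the counts were 13 of 20 (65%) for members and 84 of 254 (33.1%) for all coding genes, a smaller contrast. The GC box GGGCGG was found in 28 members (41.8%), against 43.0% of all coding genes, with 10 of them H4. Of its 33 sites in open members 14 overlapped a footprint in both replicates (42.4%), against 46.1% in open coding promoters. A match of letters does not show that a factor was bound. Open members had a median of 7 footprints in the window in replicate 1 and 7 in replicate 2, the same as all open coding genes. Of the footprints in the members' windows in replicate 1, 69.3% were overlapped by one of replicate 2, against 64.3% over all open coding genes, and for H4 77.5%.

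Position in the clusters. The Hist1 genes fell into 3 stretches separated by over 200 kb. Stretch A (chr13:21715143-21834742, 18 genes) had 14 open genes with median heights of 1.75 and 1.58. Stretch B (chr13:22034568-22044213, 5 genes) had 5 open genes with 4.34 and 3.85. Stretch C (chr13:23530050-23935461, 31 genes) had 27 open genes with 2.83 and 2.61. Stretch A, which holds the duplicated block, was lowest in both replicates. In the Hist2 cluster (chr3:96218865-96270751) 8 of 10 genes were open (3.96 and 3.79), and in the Hist3 cluster (chr11:58947920-58955684) 2 of 2 (3.87 and 3.51). These intervals are in mm10 and include 1000 bp to each side.

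Cluster intervals were drawn around the members' own starts, so the members' promoter peaks raise peak density there by construction. Peaks of the longer lists were denser in the clusters than over the genome. Their density in replicates 1 and 2 was 18.4 and 16.7 per 100 kb in stretch A, 31.1 and 31.1 in B, 13.8 and 13.6 in C, 28.9 and 23.1 in Hist2, and 103 and 90.1 in the short Hist3 interval, against 5.29 and 4.57 over the genome. Between stretches B and C it was 4.85 and 4.58, and between A and B 11.5 and 16.5. In replicate 1 the peaks at members were 16 of 22 in stretch A, 3 of 3 in B and 34 of 56 in C. They were 12 of 15 in Hist2 and 5 of 8 in Hist3. In replicate 2 the same counts were 16 of 20, 3 of 3, 33 of 55, 9 of 12 and 3 of 7. Density without the members' own peaks was not compared with the genome. Inside the Hist1 interval lie 49 other protein-coding genes, of which 4 were open in both replicates: Zfp322a (8.50 and 5.86), Abt1 (5.03 and 4.89), Zfp184 (4.02 and 3.25) and Btn2a2 (1.92 and 1.54). None of the 36 vomeronasal or olfactory receptor genes among them had a promoter peak in either replicate.

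**Figure D4:**
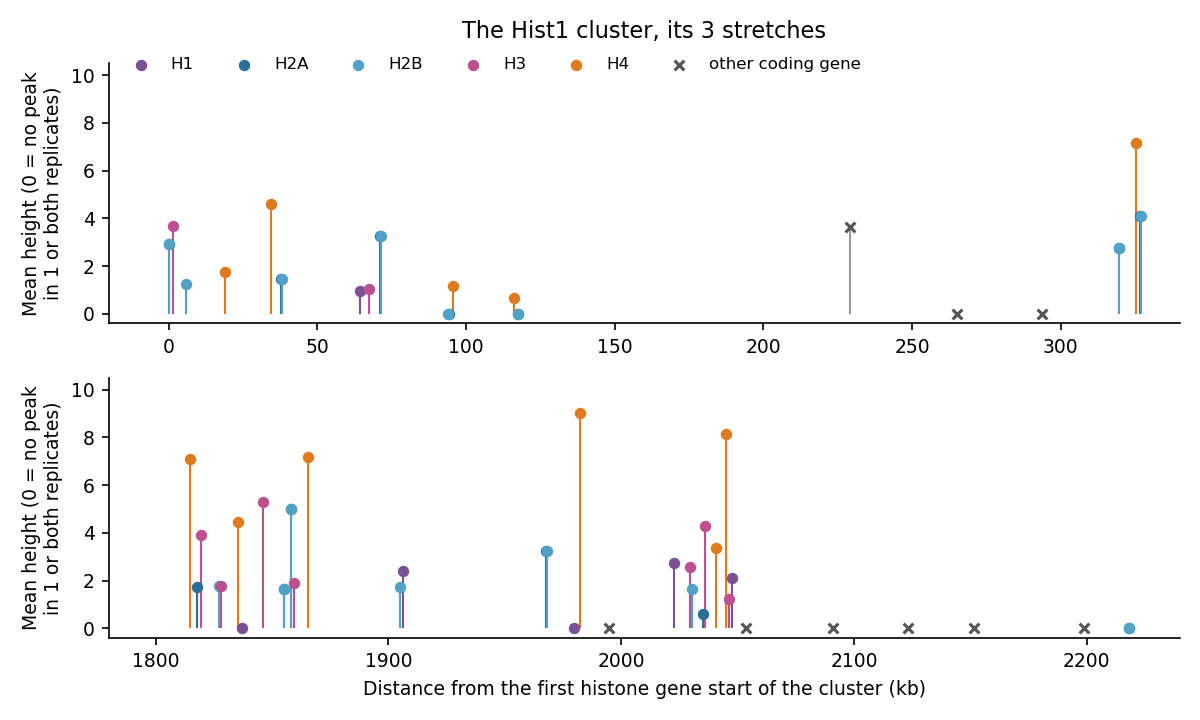
Mean promoter peak height (vertical axis, authors' signal, 0 where a peak was missing in 1 or both replicates) along the Hist1 cluster (horizontal axis, kb from its first histone gene start), with stretches A and B in the upper panel and C in the lower; colours are histone types, the 2 genes of a divergent pair fall on nearly the same place, crosses are other coding genes, and the gap between the panels, which holds no histone gene, is not drawn. The tallest lines in the upper panel (Hist1h4i) and the lower panel (Hist1h4c) are H4 genes.

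The members were mostly higher in replicate 1, as coding genes were in general. Of the 57 genes open in both, 48 were higher in replicate 1, against 89.9% of all open coding genes. The median log2 ratio of replicate 1 over replicate 2 was 0.13 for the members and 0.33 for all open coding genes, so relative to the coding median the members' ratio was -0.20. After taking off the coding median the largest ratios were those of the Hist1h2ak/Hist1h2bn pair (0.29), Hist1h4a (0.27), Hist1h3i (0.17) and Hist1h3d (0.15). The smallest were those of Hist1h4j (-0.66), Hist1h1a (-0.57), Hist1h3h (-0.48), Hist1h3a (-0.44) and Hist1h3b (-0.43). With 1 group no member's shift can be tested.

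The genes around the histone clusters' own biology were open to varying degrees. Of 17 replacement histone genes that were matched, 11 were open in both replicates (64.7%, near the 60.6% of all coding genes), with median heights of 5.13 and 4.12. The highest were H2afv (12.6 and 10.4) and H2afz (8.95 and 6.26), which encode H2A.Z, H2afx (11.6 and 8.49), whose protein is phosphorylated at DNA breaks, and H2afj (8.60 and 7.87). H1foo and H1fnt, the H1 genes of oocytes and spermatids, had no peak in either replicate, nor did H2afb1, H2afb3 and H2bfm, and H2afb2 had one of 0.0984 in replicate 1 alone.

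All 29 matched genes for histone gene transcription, histone mRNA processing and histone chaperones were open in both replicates, with median heights of 7.61 and 5.75. Of all coding genes 60.6% were open. The median CpG ratio was 0.838 over these 29 genes and 0.821 over the replication and cell cycle genes below. Among coding genes with a ratio between 0.81 and 0.927, 95.1% were open, with median heights of 4.95 and 3.89. With the gene 5' end as the only start site 25 of the 29 were open, and 12430 of all coding genes. They included Nfya, a subunit of NF-Y (15.3 and 11.3), Npat (13.2 and 9.54), Casp8ap2, a component of histone locus bodies (12.2 and 9.49), Ubn1, a chaperone partner of HIRA (10.6 and 8.64), and Hinfp (11.3 and 7.54). All 30 genes for DNA replication and the cell cycle were open as well (4.32 and 3.39), with the highest heights at the replicative helicase genes Mcm5 (11.7 and 9.94), Mcm4 (11.3 and 8.99) and Mcm7 (9.54 and 7.06) and at Ccne1, which encodes cyclin E1 (9.56 and 6.11). The open replacement, factor and replication genes thus had higher medians than the open histone genes (3.08 and 2.81) in both replicates, while the H4 median (6.22 and 6.18) lay above that of the replication genes in both.

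**Figure D5:**
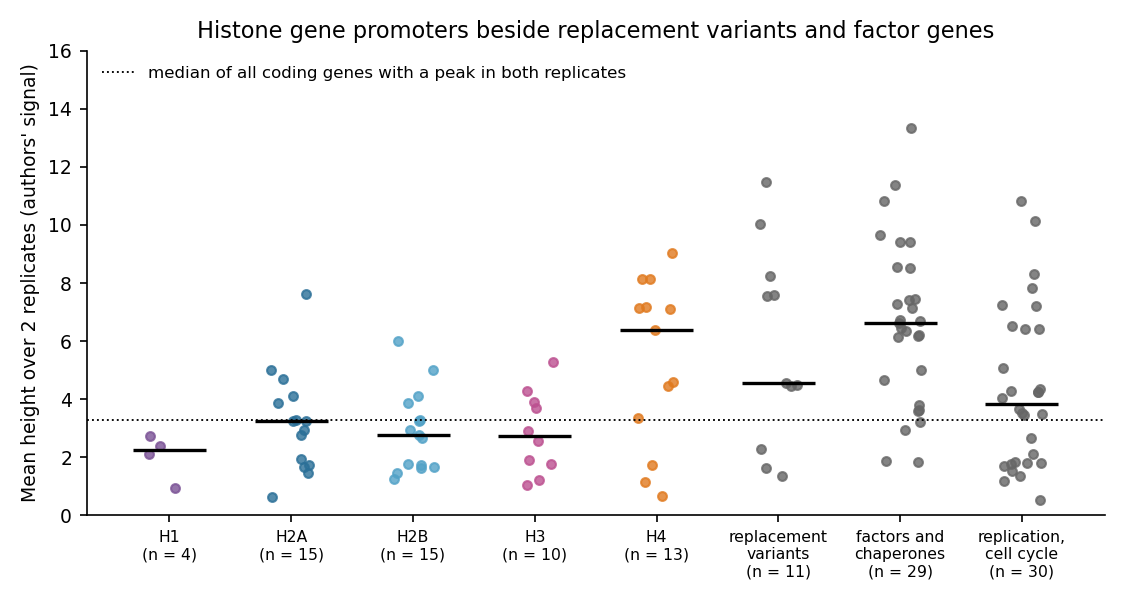
Mean peak height over both replicates (vertical axis, authors' signal) of the genes open in both replicates, 1 point per gene, for the 5 histone types and for replacement variants, factors and chaperones, and replication and cell cycle genes; bars are medians and the dotted line is the median of all open coding genes, 3.29. The H4 bar lies above those of the other histone types and near that of the factor genes.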

How the data were processed

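The data were DNase-seq of mouse hippocampus in 2 biological replicates of 1 group, mapped to mm10 per the labels. No source used here names the aligner or the peak and footprint callers. The authors deposited, for each sample, 2 peak lists whose value per peak is a signal height of unstated scale, a file of false discovery rates (q-values of the local cut rate, listed only at 0.05 or less) and footprints with the constant 0.01 as their p-value or q-value column, so footprints could not be ranked. Peaks and footprints were called per sample. The longer peak lists (144270 and 124426 peaks) were used, and the shorter (87039 and 74088) as an alternative. Footprints numbered 348892 and 327771. Total cuts per sample were not analysed here.

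For each protein-coding gene of the GENCODE M21 basic set, the highest peak overlapping by 1 bp or more a window of 500 bp to each side of any start site of a coding transcript was taken from each replicate, and a gene was called open with such a peak in both. Heights are given for replicates 1 and 2 in that order, means as mean ± SD. Log2 ratios of height were computed from the deposited signal. Sequence was GRCm38, whose chromosomes match mm10, and RefSeq starts (GRCm38.p6) were found for 62 members. CpG ratios, motif words (either strand, overlapping matches merged) and the share of 32-base words found once were computed with Python 3.11.15, numpy 2.4.6, pandas 2.3.3 and numba 0.67.0, and figures with matplotlib 3.10.9. Peak assignment and word counts were tested on simulated data. A word in a footprint is one overlapped by 1 base or more. The members, lists and motifs were chosen with earlier results of these data known. Named are the 10 highest members, the highest and lowest open member of each type, all members outside Hist1, those with a peak in 1 replicate or none, the testis genes, the 5 largest and 5 smallest ratios between replicates, and of each other list the 4 highest and up to 4 with no peak. Other members were named to complete a type, pair or motif. Of 20 replacement symbols 17 were matched and of 30 factor symbols 29. Alternatives were other windows, start sites, peak lists, minimum heights, scaling and leaving out each replicate.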

Additional observations from a re-analysis of the deposited data

How the results depend on the processing

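The number of members open in both replicates stayed between 56 and 58 in the 8 other settings of window, list, height and start site. Hist1h2ab was lost with the shorter peak list and with peaks at or above the median height, Hist1h3f with a window of 250 bp and with the peak midpoint inside the window, and Hist1h1d was gained with RefSeq starts and with start codons, the last 2 settings chosen after seeing the data. The median height of the members moved to 3.27 with a window of 1000 bp. That of H3 moved to 3.77 with a window of 1000 bp, to 2.92 with 250 bp and to 2.92 with the midpoint inside the window; wider windows take in neighbouring genes' peaks by construction. The log2 ratio between replicates turned from 0.13 to -0.20 after scaling to the coding median, by construction. Of 245 recomputed values of 26 results, these 5 changed direction or moved beyond the tolerance, and 240 stayed within it. The tolerance was 1.5 times for a count and 1 SD between the replicates for a median, so values with a wide SD could shift further. The median height of all open coding genes was 3.60, and 12107 were open, with peaks at or above the median height, and without replicate 1 the other genes open in the Hist1 interval numbered 6, against 4. Leaving out a replicate gave 57 to 58 open members and member medians of 2.81 to 3.08. No paired analysis was possible because there is 1 group. The part of depth in the lowest heights was not tested. Under 10% of the words in the windows of 8 members occur once.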
